A study of Mus musculus with 47 samples.

Results

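Acute phase genes encode plasma proteins whose output from the liver rises after infection or injury. The 10 genes described here, out of 23416 in each count file, were chosen by name for their function: the serum amyloid A genes Saa1, Saa2 and Saa3, the orosomucoid genes Orm1, Orm2 and Orm3, the siderophore-binding lipocalin gene Lcn2, the haptoglobin gene Hp, the haemopexin gene Hpx and the serine protease inhibitor gene Serpina3n. All 10 were found in all 10 count files. They were read in liver and in spermatozoa of mice descended from males without Scml2, an X-linked Polycomb gene. Ctrl-F1 and KO-F1 males were produced by intracytoplasmic sperm injection (ICSI), with testicular sperm from wild-type or from Scml2-KO males, so that both groups came from injection and the KO-F1 males carried a wild-type Scml2. KO-F2 males were sons of KO-F1 males mated with C57BL/6 females and no Ctrl-F2 library was analysed here. The labels give an age of 8 to 12 weeks in every group, the background BDF2 for F1 and BDF3 for F2 males, and 2 biological replicates per group, which makes 4 liver and 6 sperm libraries.

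In the acute phase response, cytokines of the interleukin-6 and interleukin-1 families act on hepatocytes through STAT3, NF-kB and C/EBP transcription factors, and glucocorticoids add to the response. Saa1 and Saa2 proteins circulate on high-density lipoprotein, while Saa3 is made mainly outside hepatocytes, in macrophages and epithelia. The orosomucoids are acidic glycoproteins of plasma, Lcn2 withholds bacterial iron carriers, Hp and Hpx bind free haemoglobin and haem, and Serpina3n inhibits serine proteases.

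The liver libraries held 11339729 to 14278900 counts, the F1 sperm libraries 1503733 to 2778171 and the KO-F2 sperm libraries 8384266 to 11462105, and levels are given as CPM, the counts scaled to the total of the library. A detection limit of 3 counts corresponded to 0.210 to 0.265 CPM in liver, to 1.08 to 2.00 CPM in F1 spermatozoa and to 0.262 to 0.358 CPM in KO-F2 spermatozoa, and covers counting error only. Hepatocyte markers summed to 103362 to 106599 CPM in liver and to at most 9.48 CPM in spermatozoa, where 43 genes of late spermatogenesis summed to 48860 to 168212 CPM. This late spermatogenesis sum was 48860 and 63690.1 CPM in KO-F1 spermatozoa and at least 128515 CPM in the other sperm libraries. The KO-F2 labels name another sequencing run than the liver labels, and the F1 sperm labels name none, so that run and generation cannot be told apart. Scml2 had 0 counts in every liver library and 0 to 18 in spermatozoa.

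By the RefSeq annotation of GRCm38.p6, several of these genes are neighbours. Saa3, Saa1 and Saa2 lie in that order on chromosome 7 between 46711998 and 46754313, a stretch of 42316 bases, and Orm1, Orm3 and Orm2 lie on chromosome 4 between 63344556 and 63365877, a stretch of 21322 bases. Hpx is on chromosome 7 at 105591611 to 105600116, Lcn2 on chromosome 2 at 32384637 to 32387739, Hp on chromosome 8 at 109575128 to 109579172 and Serpina3n on chromosome 12 at 104406646 to 104414334. The promoters of Saa1, Saa2 and Lcn2, which varied most between livers, and of Saa3, which stood out in KO-F2 spermatozoa, are shown with matches to the C/EBP pattern TTGCNNAA and, in Saa3 alone of these 4, the NF-kB pattern GGNNTTTCC in capitals. Each runs from 250 bases before to 50 bases after a RefSeq start site of GRCm38.p6 and is written 5′ to 3′ on the gene's strand.
Saa1, chr7:46742931-46743230, minus strand: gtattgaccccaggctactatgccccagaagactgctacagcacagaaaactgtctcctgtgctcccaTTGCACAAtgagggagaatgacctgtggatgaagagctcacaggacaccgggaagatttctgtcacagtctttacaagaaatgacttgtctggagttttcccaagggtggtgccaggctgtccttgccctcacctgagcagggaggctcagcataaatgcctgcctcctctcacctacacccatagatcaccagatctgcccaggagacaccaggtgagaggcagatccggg
Saa2, chr7:46751583-46751882, plus strand: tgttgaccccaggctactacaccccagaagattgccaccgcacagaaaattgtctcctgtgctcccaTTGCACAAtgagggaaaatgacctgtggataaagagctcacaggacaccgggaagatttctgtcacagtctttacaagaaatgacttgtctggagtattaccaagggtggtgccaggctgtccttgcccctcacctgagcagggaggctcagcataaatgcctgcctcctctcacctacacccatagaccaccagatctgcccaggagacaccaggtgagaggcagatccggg
Saa3, chr7:46715627-46715926, minus strand: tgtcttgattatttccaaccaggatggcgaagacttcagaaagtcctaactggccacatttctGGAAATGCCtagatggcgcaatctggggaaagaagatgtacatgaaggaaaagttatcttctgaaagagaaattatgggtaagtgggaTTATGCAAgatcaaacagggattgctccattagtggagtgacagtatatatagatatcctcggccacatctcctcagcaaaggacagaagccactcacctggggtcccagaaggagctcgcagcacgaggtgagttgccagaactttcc
Lcn2, chr2:32387690-32387989, minus strand: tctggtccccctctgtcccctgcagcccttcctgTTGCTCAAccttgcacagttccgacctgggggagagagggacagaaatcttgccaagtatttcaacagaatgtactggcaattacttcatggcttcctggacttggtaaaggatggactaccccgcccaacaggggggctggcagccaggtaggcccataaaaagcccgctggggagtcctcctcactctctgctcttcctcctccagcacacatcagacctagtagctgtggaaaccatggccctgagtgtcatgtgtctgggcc
The Saa1 and Saa2 windows were identical at 287 of 299 aligned bases, the Saa1 and Saa3 windows at 164 of 269, and those of Orm2 and Orm3 at 263 of 295. The pattern TTGCNNAA, on either strand, was in 7 of the 8 promoters of these genes that the RefSeq table holds (not in that of Serpina3n), against 10.8% of all 32851 promoters of the same length. The 7 hold 2 pairs of near copies, Saa1 with Saa2 and Orm2 with Orm3, and are not separate observations. The STAT pattern TTCNNNGAA was in 0 of the 8 and in 8.30% of all, and the NF-kB pattern GGNNTTTCC in those of Saa3 and Serpina3n, 2 of the 8, and in 5.82% of all. The matches do not overlap in these windows, and in Saa3 the first run of capitals is that of NF-kB. These are letter matches, chosen from general knowledge, and not measured binding. Orm1 and Hp are not in the promoter table.

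In liver, all 10 genes were detected in every library, and together they took 0.664% to 1.23% of the counts. Per kilobase of exon, the mean level over the 4 livers was highest for Hpx, at 3142 CPM per kilobase, followed by Hp at 2280.2 and Orm1 at 1428. Serpina3n followed at 185, below every Orm1 value, then Saa1 at 151, Saa2 at 58.4, Orm2 at 33.2, Saa3 at 13.3, Lcn2 at 6.30 and Orm3 at 5.17 CPM per kilobase. Only between Orm1 and Serpina3n did neighbours in this order not overlap across the 4 livers. The lengths are those of merged RefSeq exons, 2285 bases for Orm3 and 783 for Saa3. Their GENCODE transcripts have 773 and 2200 bases, so that the places of Orm3 and Saa3 depend on the length used. The highest and the lowest liver differed 1.49-fold for Orm1 and 14.8-fold for Lcn2, with Saa1 at 10.4-fold and Saa2 at 10.0-fold.

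The first comparison asked whether the liver of KO-F1 males differs from that of Ctrl-F1 males. A call required an adjusted p under 0.01 and levels at least 2-fold apart. In edgeR's quasi-likelihood test 0 of the 10 genes met both criteria, and 0% of the 11505 genes tested did. At an unadjusted p under 0.05, 2 of the 10 genes passed, Saa3 and Orm3, both higher in KO-F1, against 9.41% of all tested genes. DESeq2 also called 0 of the 10 and 0.129% of its genes. The fitted log2 fold change was above 0 for 9 genes and below 0 for Saa1, with a median of 0.35 against -0.01 over all tested genes.

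Saa1 had 300.2 and 29.0 CPM in Ctrl-F1 liver and 71.4 and 223 CPM in KO-F1 liver, in the order of replicates 1 and 2. The Ctrl-F1 values lay on either side of both KO-F1 values. The log2 fold change was -0.12 with a standard error of 0.91 (edgeR adjusted p = 0.978), and its 95% interval ran from -2.23 to 1.99.

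Saa2 had 75.4 and 9.48 CPM in Ctrl-F1 and 12.8 and 95.1 CPM in KO-F1 liver. Its low libraries were the same as those of Saa1, Ctrl-F1 replicate 2 and KO-F1 replicate 1. The log2 fold change was 0.40 with a standard error of 1.00 (edgeR adjusted p = 0.927). Saa1 took 79.9% of the counts of both genes in Ctrl-F1 replicate 1 (95% Wilson interval 78.8% to 81.0%), 75.3% in replicate 2 (71.5% to 78.8%), 84.8% in KO-F1 replicate 1 (82.4% to 86.8%) and 70.1% in replicate 2 (68.6% to 71.6%). These intervals, as all those of shares here, cover counting error only and leave out the copies made by PCR. The share was highest in the KO-F1 liver with less of both and lowest in the KO-F1 liver with more of both, and whether it differs beyond the spread between animals was not tested. The transcripts of Saa1 and Saa2 are identical at 94.4% of aligned bases, but 4.67% of the 75-base windows of Saa1 also occur in another gene, so that most unique reads tell them apart. RefSeq lists each name as an older name of the other gene.

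Saa3 had 6.23 and 4.63 CPM in Ctrl-F1 and 7.61 and 23.1 CPM in KO-F1 liver. It alone of the 10 had groups that did not overlap, which held for 41.4% of all tested genes. The log2 fold change was 1.57 with a standard error of 0.50, an unadjusted p of 0.0142 and an adjusted p of 0.485 from edgeR. Without KO-F1 replicate 2 the log2 fold change was 0.51.

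Orm1 had 1138 and 925 CPM in Ctrl-F1 and 1013 and 1374 CPM in KO-F1 liver, with a log2 fold change of 0.28 and a standard error of 0.23 (edgeR adjusted p = 0.726). Orm2 had 25.4 and 14.8 CPM in Ctrl-F1 and 20.9 and 41.7 CPM in KO-F1 liver, with a log2 fold change of 0.70 and a standard error of 0.38 (edgeR adjusted p = 0.594). Both ranked the 4 livers as Saa2 did, over a smaller range. Orm3 did not: it had 4.90 and 9.20 CPM in Ctrl-F1 and 25.3 and 7.85 CPM in KO-F1 liver. Here KO-F1 replicate 1 was the high library and Ctrl-F1 replicate 1 the low library, the reverse of the other orosomucoids. The log2 fold change of Orm3 was 1.30 with a standard error of 0.49, an unadjusted p of 0.0311 and an adjusted p of 0.509 from edgeR. Without KO-F1 replicate 1 the log2 fold change was 0.28. Of the orosomucoid counts, Orm3 took 2.39% in KO-F1 replicate 1 (95% Wilson interval 2.14% to 2.66%) and 0.420% to 0.970% in the other livers. Of the 75-base windows of Orm1, 13.8% also occur in another gene, against 0.143% of those of Orm3, and reads from shared windows cannot be assigned.

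Lcn2 had 5.95 and 0.784 CPM in Ctrl-F1 and 3.11 and 11.6 CPM in KO-F1 liver. The lowest of these rests on 11 counts. The groups overlapped, and the log2 fold change was 1.17 with a standard error of 0.87 (edgeR adjusted p = 0.694).

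Hp had 3868 and 1748 CPM in Ctrl-F1 and 2538 and 4114 CPM in KO-F1 liver, with a log2 fold change of 0.30 and a standard error of 0.41 (edgeR adjusted p = 0.853). Hpx had 5257 and 3606 CPM in Ctrl-F1 and 3736 and 6004 CPM in KO-F1 liver, with a log2 fold change of 0.20 and a standard error of 0.31 (edgeR adjusted p = 0.876). The 2 scavengers of haemoglobin and haem thus ranked the 4 livers alike. Serpina3n had 480.1 and 293 CPM in Ctrl-F1 and 442 and 380.3 CPM in KO-F1 liver, with a log2 fold change of 0.14 and a standard error of 0.26 (edgeR adjusted p = 0.901). Its KO-F1 values lay between its Ctrl-F1 values.

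**Figure D1:**
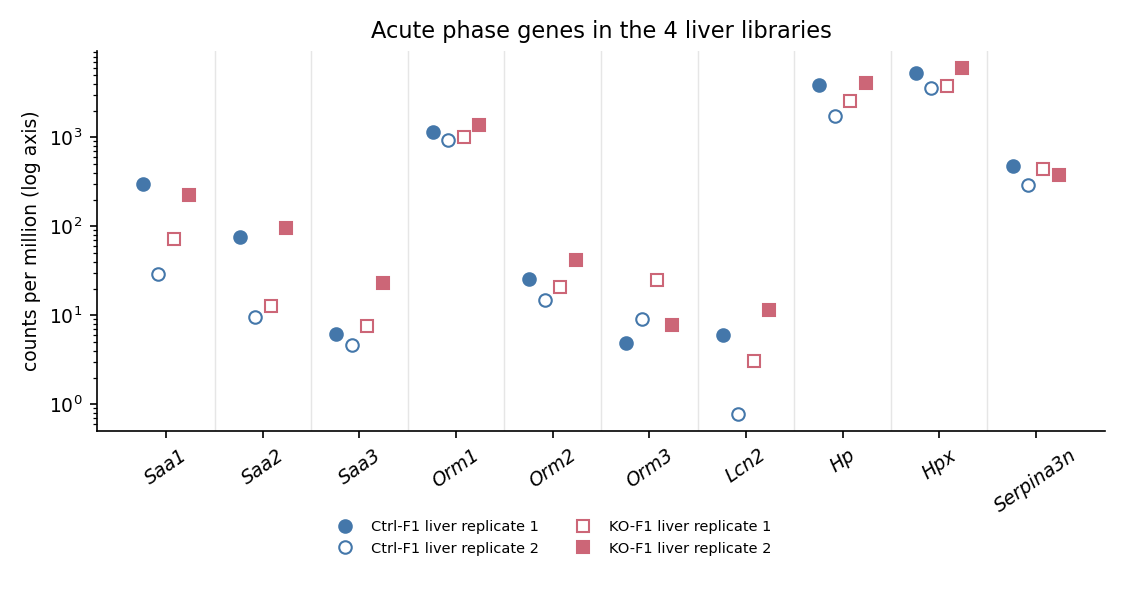
CPM (log axis) of each acute phase gene in the 4 liver libraries, Ctrl-F1 as circles and KO-F1 as squares, each point 1 library. Ctrl-F1 replicate 2 (open circle) is lowest for 9 of the 10 genes and KO-F1 replicate 2 (filled square) highest for 7, and the groups overlap for every gene but Saa3.

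The larger differences lay within the groups. Ctrl-F1 replicate 2 was the lowest liver for 9 of the 10 genes, all but Orm3, and KO-F1 replicate 2 was the highest for 7. For 8 genes Ctrl-F1 replicate 1 lay above replicate 2 and KO-F1 replicate 2 above replicate 1, a pattern that 18.5% of all tested genes had. With 0.1 CPM added to each level, the Ctrl-F1 replicates differed at least 2-fold for 4 of the 10, Saa1, Saa2, Lcn2 and Hp, against 7.01% of all tested genes. The KO-F1 replicates did so for 5, Saa1, Saa2, Saa3, Orm3 and Lcn2, against 7.68%, and those of Orm2 lay at this limit, 2.00-fold apart without the addition. On the log2 scale, with the same 0.1 CPM added, the median absolute difference between replicates was 0.84 in Ctrl-F1 and 1.29 in KO-F1 for these genes, and 0.23 and 0.28 over all tested genes. Genes read in the same 4 livers are not independent observations of the pattern.

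**Figure D2:**
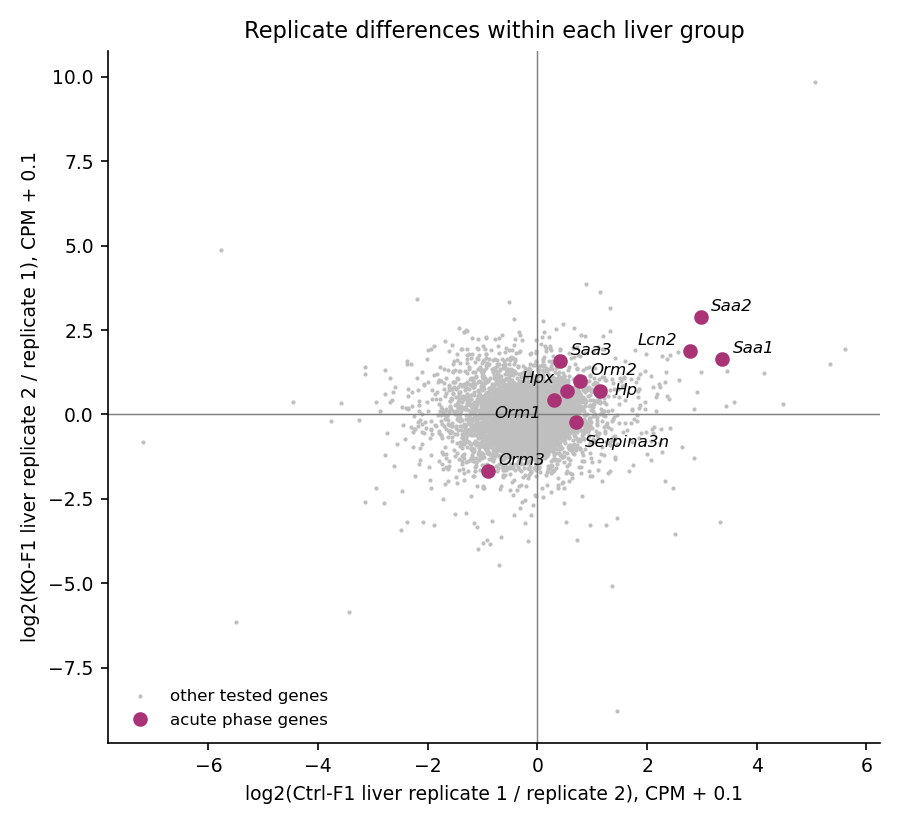
Log2 ratio of Ctrl-F1 liver replicate 1 to replicate 2 (horizontal) against that of KO-F1 liver replicate 2 to replicate 1 (vertical), CPM plus 0.1, for the 11505 tested genes, with the acute phase genes named. Saa1, Saa2 and Lcn2 lie far to the upper right, Orm3 at the lower left, Saa3 high on the vertical axis at 1.59, and most of the tested genes gather around 0.

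The liver result depended on which control was used. Without Ctrl-F1 replicate 1, 5 of the 10 genes were called higher in KO-F1 against 0.905% of all tested genes: Saa1 at a log2 fold change of 2.49, Saa2 at 2.65, Saa3 at 1.86, Orm2 at 1.21 and Lcn2 at 3.35, with edgeR adjusted p between 6.0e-11 and 0.0087. Without Ctrl-F1 replicate 2, Saa1 was at -0.99 and Saa2 at -0.44, and Orm3 alone was called, at 1.76, against 0.435% of all. Without KO-F1 replicate 1, Saa3 alone was called, at 2.19, against 0.0755% of all. Without KO-F1 replicate 2, 0 were called by edgeR, against 0.0336% of all, and Saa1 was at -1.22, Saa2 at -1.73, Lcn2 at -0.12 and Hp at -0.14. In these fits a group of 1 library was taken to vary like the other.

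**Figure D3:**
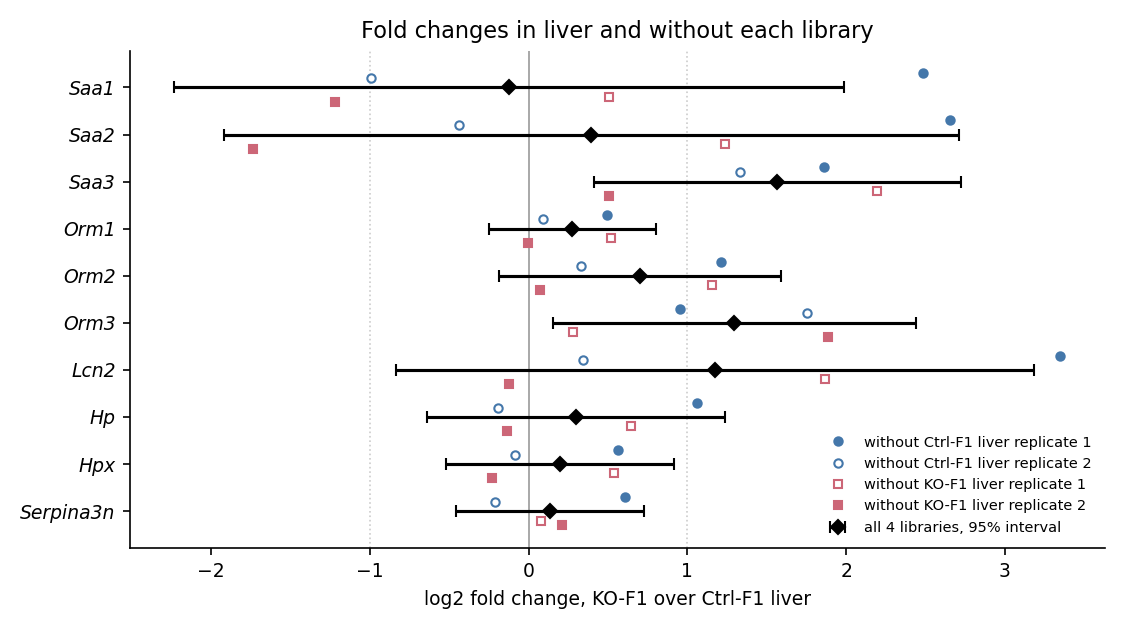
Log2 fold change of KO-F1 over Ctrl-F1 liver for each acute phase gene with its 95% interval from edgeR (diamonds), and the same without each library in turn (circles and squares). For Saa1 the value runs from -1.22 without KO-F1 replicate 2 to 2.49 without Ctrl-F1 replicate 1.

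Of 25 other positive acute phase genes of liver, from a fixed list, 24 were tested and 0 were called by edgeR, with 3 higher and 0 lower at an unadjusted p under 0.05 and a median log2 fold change of 0.22. For 17 of the 24, Ctrl-F1 replicate 1 lay above replicate 2 and KO-F1 replicate 2 above replicate 1, beside the 18.5% of all tested genes. At least 2-fold differences, with 0.1 CPM added, were found for 4 of the 24 between the Ctrl-F1 and 3 between the KO-F1 livers. Among them the metallothionein gene Mt1 had 71.5 and 5.85 CPM in Ctrl-F1 and 41.5 and 53.4 CPM in KO-F1 liver, and Ctrl-F1 replicate 2 was also the lowest liver for Mt2, at 21 counts against 76 to 399 in the others. The 2 with the smallest p were Hamp, which encodes the iron hormone hepcidin, and Cd14, a co-receptor for bacterial lipopolysaccharide. Hamp had 532 and 453 CPM in Ctrl-F1 and 1424 and 1295 CPM in KO-F1 liver, with a log2 fold change of 1.52 and a standard error of 0.18 (edgeR adjusted p = 0.0796), although reads may be divided unevenly between Hamp and its near copy Hamp2. Cd14 had 0.980 and 0.713 CPM in Ctrl-F1 and 2.37 and 3.35 CPM in KO-F1 liver, with a log2 fold change of 1.81 (edgeR adjusted p = 0.484). The KO-F1 and Ctrl-F1 values of both genes did not overlap, as held for 10 of the 24 and 41.4% of all tested genes. Cd14 but not Hamp ranked the replicates of each group as Saa1 did. The negative acute phase genes, whose plasma proteins fall in the response, had 9 of 9 tested, 0 called by edgeR and 1 at an unadjusted p under 0.05. All 9 had a log2 fold change above 0, with a median of 0.22, and the smallest p was that of Ttr, at 0.52 (edgeR adjusted p = 0.510), followed by Igf1 at 0.38 (adjusted p = 0.574).

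Upstream of these genes, the cytokines Il6, Il22 and Lif had 0 counts in all 4 livers, which allows up to 0.265 CPM, and only Il1a and Il1b of the 7 ligands listed were tested, with log2 fold changes of 0.20 and 0.86 (edgeR adjusted p = 0.913 and 0.704). Of 20 receptor and signalling genes 0 were called by edgeR, with 1 higher and 2 lower at an unadjusted p under 0.05. Socs3, a feedback inhibitor induced by STAT3, had 3.43 and 5.35 CPM in Ctrl-F1 and 14.9 and 41.4 CPM in KO-F1 liver (log2 fold change 2.77, standard error 0.48, edgeR adjusted p = 0.282). Il6ra, the interleukin-6 receptor, had 24.7 and 20.9 CPM in Ctrl-F1 and 9.41 and 9.88 CPM in KO-F1 liver (log2 fold change -1.18, standard error 0.20, edgeR adjusted p = 0.275). For both genes the groups did not overlap, as held for 9 of the 20 listed and 41.4% of all tested genes. Neither passed the threshold.

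Of 7 glucocorticoid targets 0 were called by edgeR, and 1 was higher and 2 lower at an unadjusted p under 0.05. The log2 fold change was above 0 for Dusp1 alone and below 0 for 6, with a median of -0.64 against -0.01 over all tested genes. Dusp1, a phosphatase of MAP kinases, had 16.5 and 13.2 CPM in Ctrl-F1 and 42.8 and 45.2 CPM in KO-F1 liver (log2 fold change 1.63, standard error 0.19, edgeR adjusted p = 0.0796). Tsc22d3, which encodes GILZ, had a log2 fold change of -0.76 (edgeR adjusted p = 0.418). Tat had 1430 and 2406 CPM in Ctrl-F1 and 1048 and 947 CPM in KO-F1 liver. Of 8 tested receptor and clearance genes 0 were called by edgeR and 0 had an unadjusted p under 0.05, Cd163, the receptor for haptoglobin bound to haemoglobin, being at -0.38 and Tlr4 at 0.52. Of 9 macrophage markers tested in liver, 0 were called by edgeR, with 0 at an unadjusted p under 0.05, and their sum was 170 to 271 CPM in Ctrl-F1 and 175 to 330.1 CPM in KO-F1. Neutrophil markers summed to at most 3.26 CPM in any liver. Their part in the levels of Saa3 and Lcn2 was not tested.

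In spermatozoa the genes were rare. The 10 genes together took 0.00200% to 0.00680% of the counts in F1 and 0.00797% to 0.0279% in KO-F2 libraries. Saa2, Orm2 and Hpx had 0 counts in all 6 libraries, and Orm1 and Orm3 had 0 in the 4 F1 libraries and at most 0.835 CPM in KO-F2, so that 5 of the 10 were at or near the limit of detection in spermatozoa. Per kilobase of exon, the mean over the 6 libraries was highest for Saa3, at 66.9 CPM per kilobase, and then for Lcn2 at 25.0, Hp at 4.26, Serpina3n at 3.64 and Saa1 at 1.47, with neighbours overlapping throughout. This order rests on KO-F2, where Saa3 was at a mean of 188.5 and Lcn2 at 13.5 CPM per kilobase. The place of Saa3 also depends on its exon length, 783 bases in RefSeq against 2200 in its GENCODE transcript. In Ctrl-F1 Lcn2 was at 23.9 and Saa3 at 1.84, and in KO-F1 Lcn2 at 37.5 and Saa3 at 10.4 CPM per kilobase. The libraries were made from bulk RNA of spermatozoa collected by swim-up, in which fewer cells of a type and less RNA per cell cannot be told apart.

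The second comparison, of KO-F1 with Ctrl-F1 spermatozoa, could test 2 of the 10 genes in edgeR, Lcn2 and Serpina3n, since the others did not pass the filter on low counts, which Serpina3n passed through KO-F1, where it was found. Of the 2, 0 were called by edgeR and 1 had an unadjusted p under 0.05, against 0% and 19.5% of the 10785 genes tested. DESeq2, without that filter, tested 5 of the 10 and called 0, against 2.32% of its genes, but it gave no adjusted p for Serpina3n (unadjusted p = 0.0014). Lcn2 had 26.8 and 14.0 CPM in Ctrl-F1 and 28.1 and 36.0 CPM in KO-F1 spermatozoa, a log2 fold change of 0.24 with a standard error of 0.63 (edgeR adjusted p = 0.889). Of the 10 genes, Lcn2 alone was above the detection limit in every sperm library.

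Serpina3n had 0 counts in both Ctrl-F1 sperm libraries, and 20.9 and 10.1 CPM, from 58 and 21 counts, in KO-F1 spermatozoa. Against a limit of 3 counts per library its mean was at least 9.58-fold higher in KO-F1. The edgeR test gave an unadjusted p of 0.00526 and an adjusted p of 0.140, so that the gene was not called. The KO-F1 libraries, in which Serpina3n was found, are also those with the lower late spermatogenesis sum, and the part of this difference was not tested. Whether the KO-F1 effect differs between spermatozoa and liver was tested over the 8 F1 libraries. The fit took these as independent, although a liver and a sperm library may come from the same male. The tissues had different library kits, so tissue and kit cannot be told apart. Only 2 of the 10 genes, Lcn2 and Serpina3n, passed the filter in both tissues, Serpina3n in spermatozoa through KO-F1. Of the 2, edgeR called 0, and 0% of 14415 genes, and 1 had an unadjusted p under 0.05 against 14.3% of all. That gene was Serpina3n, with an unadjusted p of 0.000558 and an adjusted p of 0.158, and Lcn2 had an adjusted p of 0.824.

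Hp had 0 and 1.33 CPM in Ctrl-F1 and 14.8 and 0 CPM in KO-F1 spermatozoa, where all 41 counts came from replicate 1. Saa1 had 1 and 7 counts in Ctrl-F1 and 0 in both KO-F1 libraries. For Saa3 the counts were 7 and 0 in Ctrl-F1 spermatozoa (2.88 and 0 CPM) and 12 and 25 in KO-F1 spermatozoa (4.32 and 12.0 CPM). Hp in KO-F1 replicate 1 and Saa3 in both KO-F1 libraries lay above the limit of their library, of 1.08 and 1.44 CPM in replicates 1 and 2. None of the 3 genes passed the filter of the edgeR test between the F1 groups, and DESeq2, which tested them, called 0. Of the fixed lists, 9 other positive acute phase genes, 17 signalling genes and 5 glucocorticoid targets were tested between these groups and 0 were called by edgeR. At an unadjusted p under 0.05 these lists had 0, 1 and 1 genes higher in KO-F1 and 0 lower, namely the kinase gene Jak2 (log2 fold change 1.58, edgeR adjusted p = 0.190) and Tsc22d3 (1.31, adjusted p = 0.212).

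The KO-F2 spermatozoa were compared with Ctrl-F1 and with KO-F1 spermatozoa, and both comparisons use the same KO-F2 libraries. Saa3 stood out. It had 60.6 and 234.6 CPM in KO-F2 spermatozoa, from 695 and 1967 counts, and at most 12.0 CPM in the F1 libraries, and the KO-F2 values lay above all 4. Against Ctrl-F1 the log2 fold change was 6.30 with a standard error of 1.08, an unadjusted p of 0.00105 and an adjusted p of 0.149 from edgeR. Against KO-F1 it was 4.59 with a standard error of 0.80, an unadjusted p of 0.000631 and an adjusted p of 0.0130 from edgeR, which misses the threshold of 0.01. DESeq2 called Saa3 in both comparisons, at adjusted p of 1.2e-08 and 4.5e-10, and so did edgeR without a filter on low counts, at 0.0066 and 4.5e-12, where it called 0.209% and 13.6% of all genes. With libraries scaled to the late spermatogenesis genes alone, the log2 fold change against KO-F1 was 2.57 (edgeR adjusted p = 0.0483).

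Of the 5 genes that edgeR tested in each comparison it called 0, and of the 7 that DESeq2 tested it called Saa3 alone. Against Ctrl-F1, edgeR called 0% and DESeq2 1.48% of all their genes, and against KO-F1 2.31% and 11%. At an unadjusted p under 0.05, 2 of the 5 passed against Ctrl-F1, Saa3 and Serpina3n, with 14.9% of all 13149 genes tested, and 2 of the 5 against KO-F1, Saa3 and Saa1, with 36.8% of all 13517. The 5 tested by edgeR passed the filter through the groups in which they were found.

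**Figure D4:**
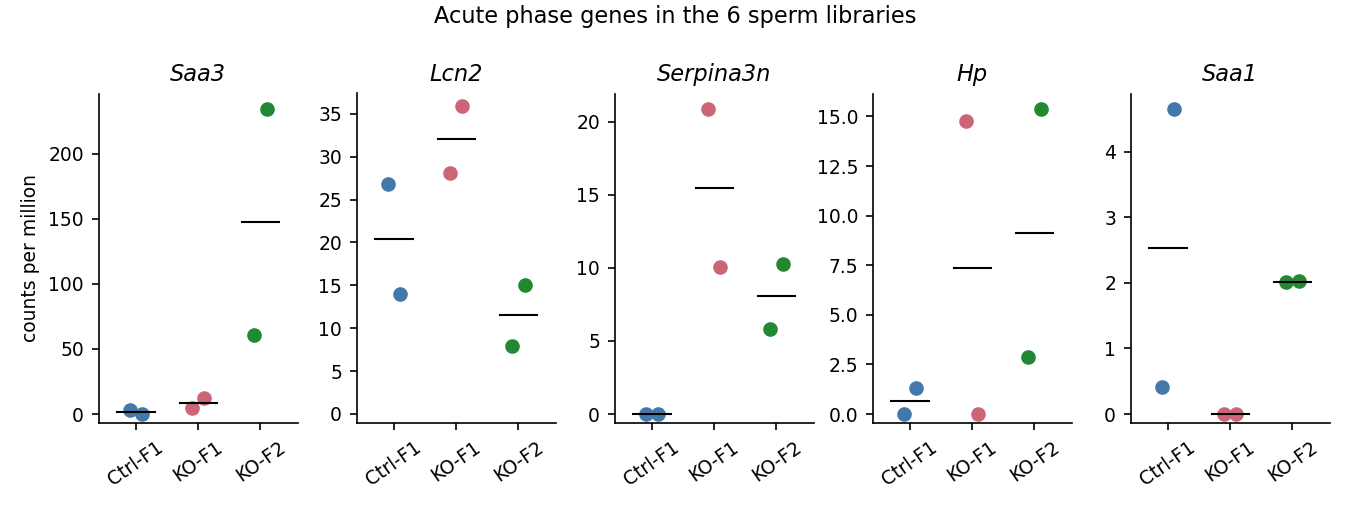
CPM of Saa3, Lcn2, Serpina3n, Hp and Saa1 in the 6 sperm libraries, each point 1 library and each bar the mean of its group. Each panel has its own linear axis: Saa3 reaches 234.6 CPM in KO-F2 spermatozoa, while Saa1 reaches 4.66 CPM, in Ctrl-F1 spermatozoa.

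Serpina3n had 5.85 and 10.3 CPM in KO-F2 spermatozoa, at least 4.98-fold above Ctrl-F1 at the limit of 3 counts per library (edgeR adjusted p = 0.207). Against KO-F1 its log2 fold change was -0.52 with a standard error of 0.61 (edgeR adjusted p = 0.584). Both KO generations had counts of Serpina3n where Ctrl-F1 had 0, and neither difference passed the threshold.

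Lcn2 had 7.94 and 15.0 CPM in KO-F2 spermatozoa, the reverse direction to Saa3. The log2 fold change was -0.98 against Ctrl-F1 (standard error 0.58, edgeR adjusted p = 0.502) and -1.08 against KO-F1 (standard error 0.49, edgeR adjusted p = 0.158). With libraries scaled to the late spermatogenesis genes alone, Lcn2 was called lower in KO-F2 than in KO-F1, at -3.09 (edgeR adjusted p = 0.0051). That scaling called 28.7% of all genes, 38 higher and 3847 lower against 285 and 27 before, and moved the median log2 fold change of all genes from 0.13 to -1.87.

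Hp had 2.88 and 15.4 CPM in KO-F2 spermatozoa. Its pooled counts were 162 and those of Ctrl-F1 2, a ratio of 16.0 once divided by the library totals, with a 95% exact counting interval of 4.37 to 134 that leaves out the spread between libraries (edgeR adjusted p = 0.354). Against KO-F1 the log2 fold change of Hp was 0.73 with a standard error of 1.39 (edgeR adjusted p = 0.746). Saa1 had 2.01 and 2.03 CPM in KO-F2, 0.412 and 4.66 CPM in Ctrl-F1 and 0 in KO-F1 spermatozoa, at least 1.60-fold above KO-F1 (edgeR adjusted p = 0.0590) and at a log2 fold change of -0.46 against Ctrl-F1 (adjusted p = 0.916). Its KO-F2 values lay between those of Ctrl-F1.

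Markers of other cells also differed between KO-F2 and F1 spermatozoa. Of 6 lymphocyte markers all 6 were above the limit in both KO-F2 libraries and at most 2 in an F1 library, and their sum was 441 and 313 CPM against 1.08 to 9.98 CPM. Between the KO-F2 libraries the lists went both ways. Replicate 2, with more Saa3, had lower lymphocyte and epididymal epithelium sums and higher macrophage and neutrophil sums. Whether these levels are related was not tested. The limit of 3 counts is a lower CPM in the deeper KO-F2 libraries, where more genes can pass it. Cd3e and Nkg7 had at most 2.39 CPM in KO-F2, near the F1 limit of 1.08 to 2.00 CPM. Of the 5 lymphocyte markers tested against KO-F1, edgeR called 4 higher in KO-F2, beside 2.31% of all genes. These were the B cell genes Cd79a, Cd79b, Ms4a1 and the leukocyte gene Ptprc, which passed the filter on low counts through KO-F2. Against Ctrl-F1 it called 0 of 5, and 0% of all genes. Of 9 macrophage markers 8 were above the limit in each KO-F2 library and 4 in each F1 library, at a sum of 313 and 688 CPM against 111 to 248 CPM. Cd5l, Vsig4 and Marco, defining genes of tissue macrophages, had 0 counts in every F1 sperm library, and Clec4f of Kupffer cells had 0 in all 6. Csf1r had 30.9 and 64.6 CPM in KO-F2 and 14.4 to 57.2 CPM in F1 spermatozoa. Its values overlapped, as did those of Cd68. C1qa and C1qb were present in every F1 library and higher in both KO-F2 libraries. Cd5l had 37.1 and 105 CPM in KO-F2 spermatozoa. Of 8 macrophage markers tested against KO-F1 edgeR called Cd5l alone, beside 2.31% of all genes. Against Ctrl-F1 it called 0 of 8, beside 0% of all. Cd5l, Vsig4, Marco and Timd4 passed the filter on low counts through KO-F2. Neutrophil markers summed to 5.85 and 28.3 CPM in KO-F2 and to 1.80 to 4.66 CPM in F1 spermatozoa, with Camp and Ngp at 0 in all 6. Hepatocyte markers summed to 6.32 to 8.72 CPM in KO-F2 and 1.33 to 9.48 CPM in F1 spermatozoa, with albumin (Alb) at 0 in both KO-F2 libraries. Alas2, an enzyme of haem synthesis in red cell precursors, had 21.9 and 429.7 CPM in KO-F2 and at most 10.6 CPM in F1 spermatozoa. The epididymal epithelium sum went the other way, at 1797 to 3485 CPM in KO-F2 and 6858 to 20444 CPM in F1 spermatozoa. Most of this sum was Crisp1, at 1260 to 2856 CPM in KO-F2 and 5448 to 18255 CPM in F1 spermatozoa. Against Ctrl-F1, 9 of the 13 tested markers had a log2 fold change below 0 and 4 above. Cst8 had 114 and 95.5 CPM in KO-F2 and at most 61.4 CPM in F1 spermatozoa. Of 7 stroma and muscle markers tested against Ctrl-F1, 6 were below 0 and 1 above, with 0 called by edgeR. The part of these cells in the level of Saa3 was not tested.

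**Figure D5:**
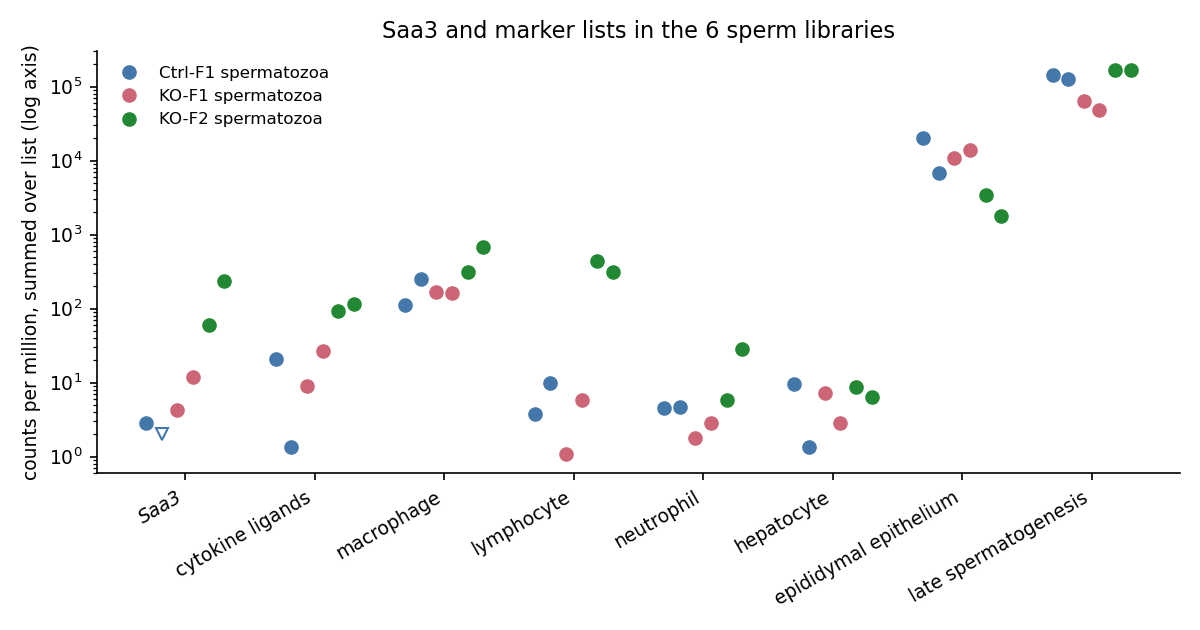
CPM (log axis) of Saa3 and of the summed marker lists in the 6 sperm libraries, each point 1 library, with the Ctrl-F1 library without Saa3 counts drawn as an open triangle at its limit of 3 counts. Saa3 and the sums of the cytokine ligands and of the macrophage, lymphocyte, neutrophil and late spermatogenesis lists are highest in both KO-F2 libraries. The epididymal epithelium sum is lowest there.

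Of the 7 cytokine ligands that induce the acute phase response 6 were tested in edgeR. Against Ctrl-F1 all 6 passed the filter on low counts through KO-F2, and against KO-F1 Il6, Il1a, Tnf and Osm did. The counts of higher ligands thus rest on genes that were tested because KO-F2 had them. Against Ctrl-F1 0 were called and 5 were higher at an unadjusted p under 0.05, beside 0% and 14.9% of all genes. Against KO-F1 1 was called higher, beside 2.31% of all genes. That was Osm, the cytokine oncostatin M, with 25.5 and 31.1 CPM in KO-F2, 2.06 and 0 CPM in Ctrl-F1 and 0 in KO-F1 spermatozoa. Il6 had 9.86 and 14.1 CPM in KO-F2 and 1 count in all 4 F1 libraries together (edgeR adjusted p = 0.170 against Ctrl-F1 and 0.0137 against KO-F1). Not all ligands were highest in KO-F2: Lif had 2.97 and 3.34 CPM in KO-F2 and 3.96 and 11.0 CPM in KO-F1, Tnf had 5.67 and 5.13 CPM in KO-F2 and 5.77 CPM in Ctrl-F1 replicate 1, and Il22 had 0 counts throughout. Of the 10 other positive acute phase genes tested against KO-F1, 5 had a log2 fold change above 0 and 5 below, and at an unadjusted p under 0.05 3 were higher and 1 lower. Fn1, which encodes fibronectin, and Cd14 were called higher, and the lower gene was Cp, which encodes ceruloplasmin, at -1.92 (edgeR adjusted p = 0.0218). Fn1 had 248 and 454 CPM in KO-F2 and at most 5.40 CPM in F1 spermatozoa, and Cd14 149 and 248 CPM against at most 16.8 CPM. Of 17 signalling genes tested, 0 were called by edgeR in either comparison (2 higher against Ctrl-F1, and 5 higher and 2 lower against KO-F1, at an unadjusted p under 0.05). Cebpb, a C/EBP factor induced in inflammation, had 193 and 366 CPM in KO-F2 and at most 89.1 CPM in F1 spermatozoa (edgeR adjusted p = 0.212 against Ctrl-F1 and 0.0122 against KO-F1). Nfkbia, an inhibitor of NF-kB, had 127 and 239.7 CPM against at most 65.9 CPM (edgeR adjusted p = 0.149 and 0.0184). Tlr2, a receptor for bacterial lipoproteins, had 9.77 and 14.7 CPM in KO-F2 and 0 counts in the F1 libraries (edgeR adjusted p = 0.170 and 0.0129). It passed the filter on low counts through KO-F2 alone.

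Over all 10 libraries, with levels as log2(CPM + 1) centred within each tissue, the pattern of Saa3 was nearest to those of Itgb2, a beta integrin of leukocytes, and Ccrl2, a receptor-like protein for chemerin. The root mean square differences were 0.75 and 0.78, against 2.08 for Saa3 around its own tissue means. For Lcn2 the nearest were Fkbp11 and Dcaf4, at 0.52 and 0.53 against 0.85. For Hp they were Mapk7 and Hyal2, at 0.46 and 0.49 against 1.32, and for Serpina3n Casp8 and Lurap1l, at 0.18 and 0.26 against 1.36. This likeness was read among 9421 genes that passed the filter in both tissues, in libraries that share their depth and their make-up, and is a description only. The other 6 acute phase genes did not pass the filter set over all 6 sperm libraries together.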

How the data were processed

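RNA-seq counts were analysed for 10 libraries: 4 of liver (Ctrl-F1, KO-F1) and 6 of spermatozoa (Ctrl-F1, KO-F1, KO-F2). The authors made liver libraries from mRNA with a strand-specific kit and sperm libraries from total RNA with PCR-amplified cDNA, mapped 75-bp single-end reads to mm10 (GRCm38) with HISAT2 2.1.0 and counted uniquely aligned reads with featureCounts. The annotation and strand setting are not given in the sources used here, and PCR copies cannot be told apart. The raw counts per gene symbol were used as deposited, without 2 symbols listed more than once (4 lines of each file).

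Each comparison was fitted on its own libraries with edgeR 4.0.16 (R 4.3.3): TMM, filterByExpr (minimum count 10, minimum total 15), quasi-likelihood F test and Benjamini-Hochberg adjustment over all tested genes. Standard errors are the log2 fold change over the square root of F. With 2 libraries against 2, the smallest two-sided p of an exact permutation test is 0.333. The p-values printed come from models across genes and measure the spread between these samples. Alternatives were DESeq2 1.42.0, its size factors in edgeR, other filters, a replicate block, scaling to late spermatogenesis genes, 1 model for all sperm groups, thinned counts, summed paralogs and leaving out each library. The tests were tried on simulated data. The acute phase genes and all lists were chosen with earlier results of these data known, from general knowledge of the response. Named were all 10 genes, from each other list the called genes or the 2 with the smallest p, and the 2 nearest patterns of each gene; others were chosen after their values were seen. Adgre1, Ly6g, Hbb-bs and Hbb-bt were not matched in the files. Promoters and positions are from RefSeq (GRCm38.p6), shared windows from GENCODE transcripts, exon lengths from RefSeq and intervals of shares from Wilson's method. ChIP-seq and embryo samples were not analysed here.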

Additional observations from a re-analysis of the deposited data

How the results depend on the processing

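In liver, 0 of the 10 acute phase genes were called by edgeR with either normalization, by DESeq2, under either filter and with the replicate block, and 0 to 5 when a library was left out. Over all genes, 0 were called in liver, 20 by DESeq2, 25 without a filter, 1 with at least 10 counts in every library, 2 with the replicate block and 4 to 107 with a library left out. In KO-F1 spermatozoa 0 were called under each setting run, which tested 1 to 5 of the 10, while all genes went from 0 to 390 by DESeq2, 113 without a filter, 200 with at least 10 counts in every library and 431 scaled to the late spermatogenesis list.

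For KO-F2 against Ctrl-F1 spermatozoa, 1 of the 10, Saa3, was called by DESeq2, without a filter and with the replicate block, and 0 to 1 with a library left out. All genes went from 0 to 277 by DESeq2, 39 without a filter, 1 with at least 10 counts in every library, 362 with the replicate block, 2 with all sperm groups in 1 model and 35 to 277 with a library left out. For KO-F2 against KO-F1, 1 of the 10 was called by DESeq2, without a filter, with at least 10 counts in every library, with the replicate block and on thinned counts, each time Saa3, and 1 scaled to the late spermatogenesis list, which was Lcn2. With a library left out 0 to 1 were called, Saa3 without KO-F1 replicate 2 or KO-F2 replicate 1. All genes went from 312 to 2059, 2552, 1805 and 819 under the first 4 of these settings, 3885 scaled to the late spermatogenesis list, 692 thinned, 198 with all sperm groups in 1 model and 230 to 2898 with a library left out. The tissue difference called 0 genes by edgeR and 261 by DESeq2, which called Serpina3n among them. The cause of these changes was not tested.

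Directions turned for the following fold changes, which were not called in the main comparison. The log2 fold change of Saa1 in liver was 0.48 with the replicate block, 0.47 with a crossed replicate block and 0.00096 when Saa1 and Saa2 were summed. That of Saa1 between KO-F2 and Ctrl-F1 spermatozoa was 0.086 with the replicate block, and that of Hp between KO-F2 and KO-F1 was -1.15 scaled to the late spermatogenesis list. With a library left out, the liver values ran from -1.22 to 2.49 for Saa1, -1.73 to 2.65 for Saa2, -0.12 to 3.35 for Lcn2, -0.19 to 1.06 for Hp, -0.23 to 0.56 for Hpx, -0.21 to 0.61 for Serpina3n and -0.0015 to 0.52 for Orm1. In spermatozoa they ran from -0.052 to 0.65 for Lcn2 between the F1 groups, -1.45 to 2.24 for Saa1 between KO-F2 and Ctrl-F1 and -0.79 to 9.07 for Hp between KO-F2 and KO-F1, and for Lcn2 the tissue difference ran from -3.22 to 0.23.

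Within a tissue, same-numbered samples of different groups come from different animals. Their deviations from the group means had correlations of -0.16 in liver and -0.0092 to 0.16 in spermatozoa. With the liver numbers crossed, which was chosen after seeing the data, 0 genes were called. Apart from Saa3 in the KO-F2 comparisons, the replicate block changed no call of an acute phase gene. The limits of these results are 2 libraries per group, which let 1 library set the fold changes of Saa1, Saa2 and Lcn2 in liver, and the depth of the F1 sperm libraries, at which a gene under 1.08 to 2.00 CPM was not detectable.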
